A study of Mus musculus with 11 samples.

Results

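The genes described here are 10 genes of hepatic glucose production and of the insulin response that runs through the forkhead factor FoxO1. They are G6pc, Pck1, Fbp1, Pcx, Tat, Ppargc1a, Foxo1, Irs2, Insr and Igfbp1. They were taken by gene name, with no threshold on their levels, and every array probe whose RefSeq accession leads to one of them was taken. They are 10 of 16630 named genes tested. The members had 13 probes of 56605 on the array, with Foxo1, Ppargc1a and Insr measured by more than 1 probe each. All 13 probes were well above background on all 11 arrays, so no member was lost to the filter that left 36049 probes for testing.

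The arrays measured RNA of whole liver from male C57Bl6/J mice, which were injected intraperitoneally at 8 weeks of age with AAV8, a virus that carries genes into liver cells, and examined 5 days later. When a Notch receptor is activated its intracellular domain is cut free and enters the nucleus. The vectors carried that domain of Notch1 (NICD1) or of Notch2 (NICD2), and the question of the study was how the signals differ. The GFP group (3 arrays) received 6e+11 viral genomes of a vector for green fluorescent protein. The NICD1 group (3 arrays) was given NICD1 and GFP vectors at 3e+11 viral genomes each, and the NICD2 group (3 arrays) NICD2 and GFP vectors at those doses. The NICD1&2 group (2 arrays) was given both NICD vectors at 3e+11 viral genomes each without any GFP vector, so it differs from the other NICD groups in that as well. All vectors used the CMV promoter, which is not restricted to hepatocytes, and all mice were otherwise wild type. Feeding state and time of day at collection, which these genes follow, were not given in the sources used here. The arrays lay on 2 slides, and each slide held arrays of all 4 groups.

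When food is scarce, glucagon and glucocorticoids turn on hepatic gluconeogenesis, in which Pcx, Pck1, Fbp1 and G6pc encode enzymes that turn lactate and amino acids into free glucose. After a meal, insulin acts through its receptor and the insulin receptor substrates to activate the kinase Akt, which phosphorylates FoxO1 and drives it out of the nucleus. Transcription of G6pc, Pck1, Igfbp1 and Irs2 then falls. In mouse liver, Notch signalling has been linked to FoxO1-dependent G6pc transcription, so these genes are a natural set in which to compare the NICD vectors.

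The insulin response element at the Igfbp1 start has the core CAAAACA, a sequence that FoxO proteins bind, and the cAMP response element of Pck1 is written TTACGTCA. RefSeq windows of the GRCm38.p6 build, from 250 bases before to 50 bases after the annotated start, were available for 9 of the 10 genes, all except Insr. The core CAAAACA was found on either strand in the windows of 3 of the 9 genes, Igfbp1, G6pc and Irs2, and in 6.28% of 32851 windows of all genes. TTACGTCA was found in the window of Pck1 and in 0.499% of all windows. No other searched motif matched in the 9 genes: TGTTTAC, the forkhead consensus core (3.65% of all windows), TGACGTCA, the palindromic cAMP element (1.79%), GTGGGAA, the element of the Notch partner Rbpj (6.38%), and TGTTCT, the glucocorticoid receptor core site (19.0%). A match describes these letters and does not show a bound site. The 250 bases before the start are printed for the 4 genes with a match, and whether a match bears on the levels was not tested. The matched letters are in capitals, and TGTTTTG is CAAAACA read on the other strand.
Igfbp1 (chr11:7197537-7197786, strand +): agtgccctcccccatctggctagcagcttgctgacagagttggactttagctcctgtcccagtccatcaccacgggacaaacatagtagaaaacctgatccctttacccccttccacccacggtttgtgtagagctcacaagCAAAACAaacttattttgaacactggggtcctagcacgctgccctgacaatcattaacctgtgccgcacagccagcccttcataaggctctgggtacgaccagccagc
G6pc (chr11:101367466-101367715, strand +): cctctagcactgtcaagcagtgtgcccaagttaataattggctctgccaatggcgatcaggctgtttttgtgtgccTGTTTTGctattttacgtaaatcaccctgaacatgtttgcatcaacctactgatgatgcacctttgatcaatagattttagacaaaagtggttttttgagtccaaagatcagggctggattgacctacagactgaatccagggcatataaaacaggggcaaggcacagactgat
Irs2 (chr8:11008930-11009179, strand -): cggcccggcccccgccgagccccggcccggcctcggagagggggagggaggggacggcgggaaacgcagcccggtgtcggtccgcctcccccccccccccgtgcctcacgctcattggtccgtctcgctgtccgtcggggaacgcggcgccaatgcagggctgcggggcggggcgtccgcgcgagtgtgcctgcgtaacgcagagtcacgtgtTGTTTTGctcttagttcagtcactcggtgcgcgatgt
Pck1 (chr2:173152823-173153072, strand +): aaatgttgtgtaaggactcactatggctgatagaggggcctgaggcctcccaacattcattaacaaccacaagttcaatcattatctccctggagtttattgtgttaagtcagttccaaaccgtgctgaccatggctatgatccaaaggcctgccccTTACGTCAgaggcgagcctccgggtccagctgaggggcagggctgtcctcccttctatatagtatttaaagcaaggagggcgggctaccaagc
The match began 108 bases before the start in Igfbp1, 174 in G6pc, 37 in Irs2 and 93 in Pck1.

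Of the 10 genes, Foxo1 and Pck1 were higher with NICD2 and with both vectors, the mean of Irs2 was lower, and for the remaining genes the NICD2 arrays overlapped the GFP arrays by the brightest probe. No difference passed a Benjamini-Hochberg adjusted p of 0.05 in limma, a linear model fitted over all tested probes with a spread shared by all groups. The study's own definition of an altered gene, an unadjusted P under 0.15 with a fold change over 1.8, was met by 0 of the 10 genes in NICD1 against GFP, by 1 (Irs2) in NICD2 against GFP, by 0 in NICD1&2 against GFP and by 0 in NICD1 against NICD2. Among all tested probes it was met by 2.19%, 1.97%, 6.24% and 1.22% in these comparisons. The adjusted threshold was passed by 0.00832%, 0.0527%, 0.0999% and 0.00277% of all probes. At an unadjusted p under 0.05 the members numbered 0 with NICD1 against a background of 5.5%, 3 (Foxo1, Pck1 and Irs2) with NICD2 against 6.86%, 3 (Foxo1, Pck1 and Fbp1) with both vectors against 14.8%, and 1 (Foxo1) in NICD1 against NICD2 against 3.73%. Arrays of the compared groups did not overlap for 0, 2, 4 and 2 of the 10 genes, beside 12.5%, 13.4%, 34.4% and 9.31% of all probes. The labels give the arrays as separate samples without saying which mouse each came from, so the p-values measure the spread between these arrays, which may be partly technical. In whole liver, fewer cells of a type and less RNA per cell cannot be told apart.

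**Figure D1:**
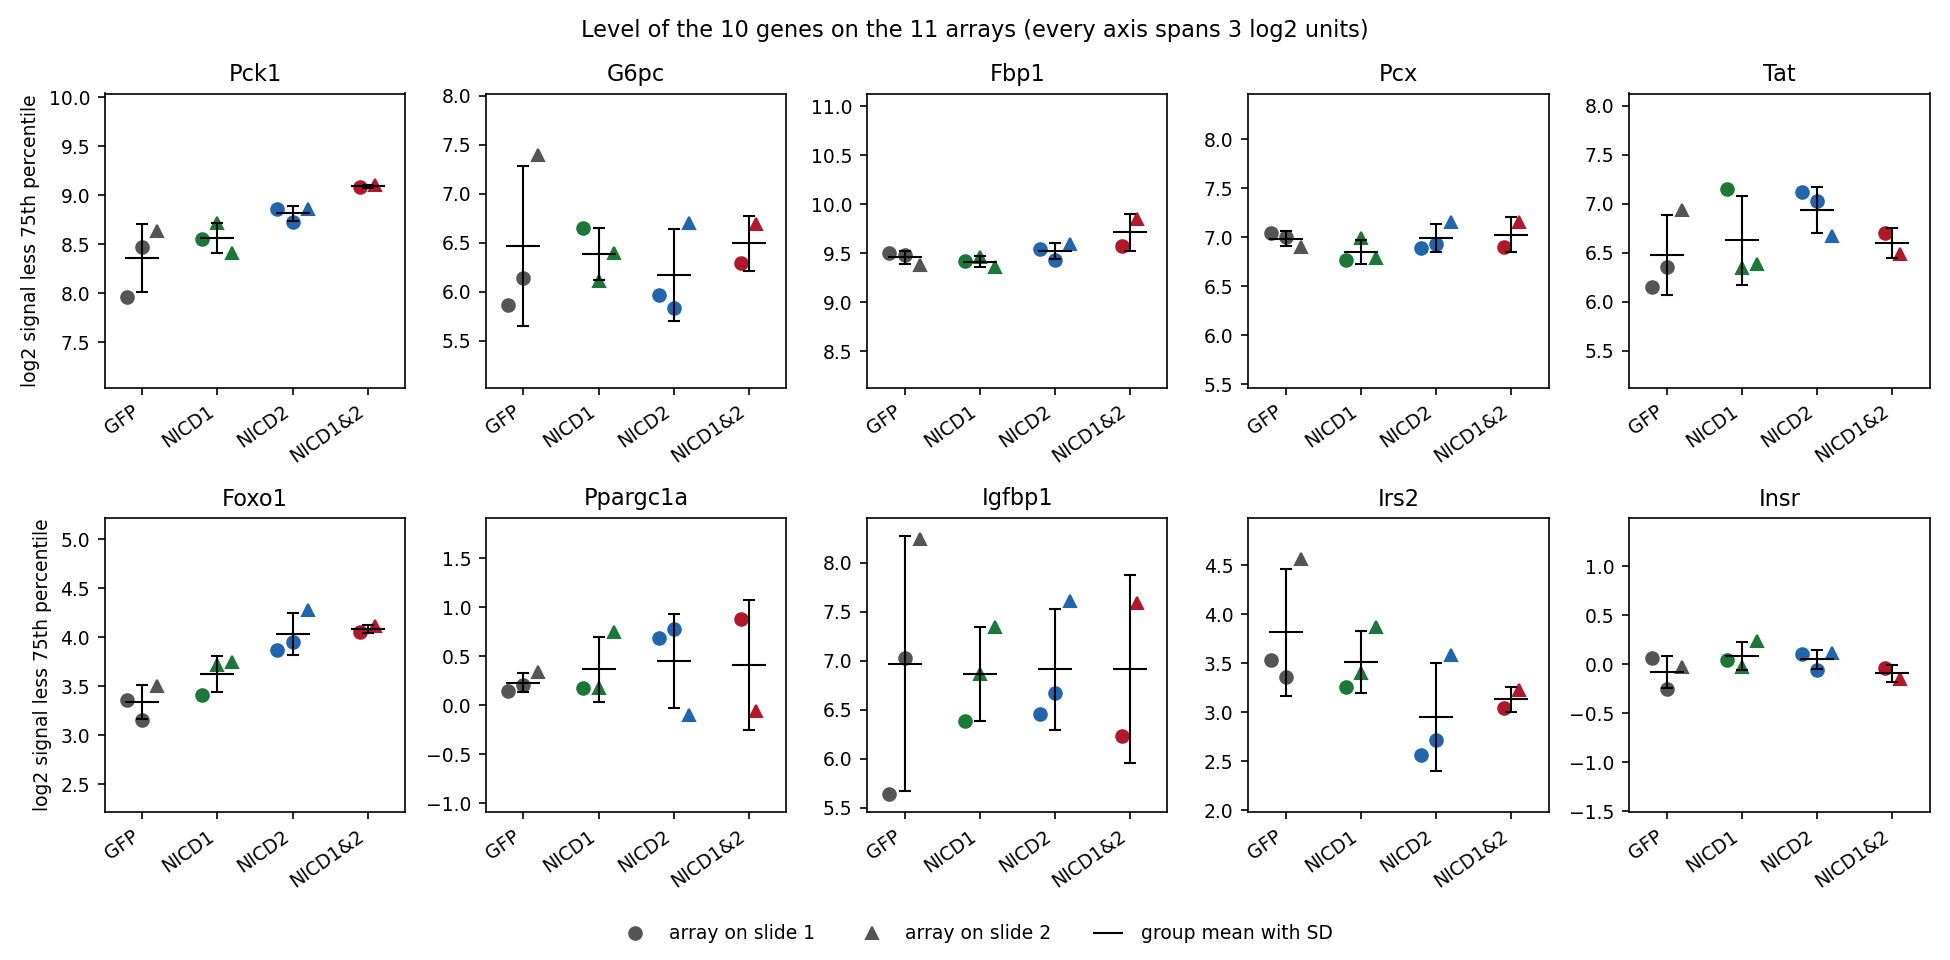
Level of each of the 10 genes on each array, as log2 processed signal less the 75th percentile of the array, with 1 point per array, the group mean and the SD (n = 3, and 2 for NICD1&2). Circles are arrays on slide 1 and triangles arrays on slide 2, and every panel spans the same number of log2 units. The means of Foxo1 and Pck1 rise from GFP to NICD1 to NICD2, though the GFP and NICD1 arrays overlap for both. The GFP arrays of Igfbp1 cover 2.60 log2 units.

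Foxo1 encodes the transcription factor itself. By its brighter probe the log2 level, which is the log2 signal less the 75th percentile of the array, was 3.36, 3.16 and 3.50 in GFP livers, 3.41, 3.72 and 3.74 with NICD1, 3.87, 3.95 and 4.27 with NICD2, and 4.05 and 4.11 with both. All NICD2 and NICD1&2 arrays lay above all GFP and NICD1 arrays, and the NICD1 arrays overlapped with GFP. The mean was 3.34 ± 0.17 (SD, n = 3) in GFP livers and 4.03 ± 0.21 (SD, n = 3) with NICD2, a log2 difference of 0.69 ± 0.15 (SE), or 1.62-fold (limma adjusted p = 0.244). With both vectors the difference from GFP was 0.74 ± 0.16 (SE), or 1.68-fold (limma adjusted p = 0.145), and with NICD1 alone it was 0.29 ± 0.15 (SE; limma adjusted p = 0.903). NICD1 lay 0.41 below NICD2 on the log2 scale (SE 0.15), with an unadjusted limma p of 0.0221 and an adjusted p of 0.99998.

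The dimmer Foxo1 probe gave the same order for GFP, NICD1 and NICD2. Its log2 levels were 2.43, 2.16 and 2.60 with GFP, 2.70, 2.95 and 2.93 with NICD1, 3.20, 3.36 and 3.32 with NICD2, and 3.12 and 3.06 with both vectors. Here the NICD1 arrays also cleared the GFP arrays, and the NICD1&2 arrays lay below the NICD2 arrays. The difference from GFP was 0.90 ± 0.13 (SE) with NICD2, or 1.86-fold, which meets the study's definition of altered (limma adjusted p = 0.0698). With NICD1 it was 0.47 ± 0.13 (SE), with an adjusted limma p of 0.751. By this probe the NICD2 difference passed an adjusted p of 0.05 with normexp and quantile normalization (0.0156) and with only the probes above background on all 11 arrays tested (0.0253), and missed it in the other 20 alternatives fitted by probe in limma. Within slide 1 the brighter probe differed between NICD2 and GFP by 0.65, and on slide 2, where 1 NICD2 array stands against 1 GFP array, by 0.77. With the slide as a block its limma adjusted p was 0.0924. Leaving out any 1 array left the NICD2 difference of the brighter probe between 0.57 and 0.77. The exact two-sided permutation p of 0.1 for NICD2 against GFP is the smallest that 3 arrays against 3 allow.

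**Figure D2:**
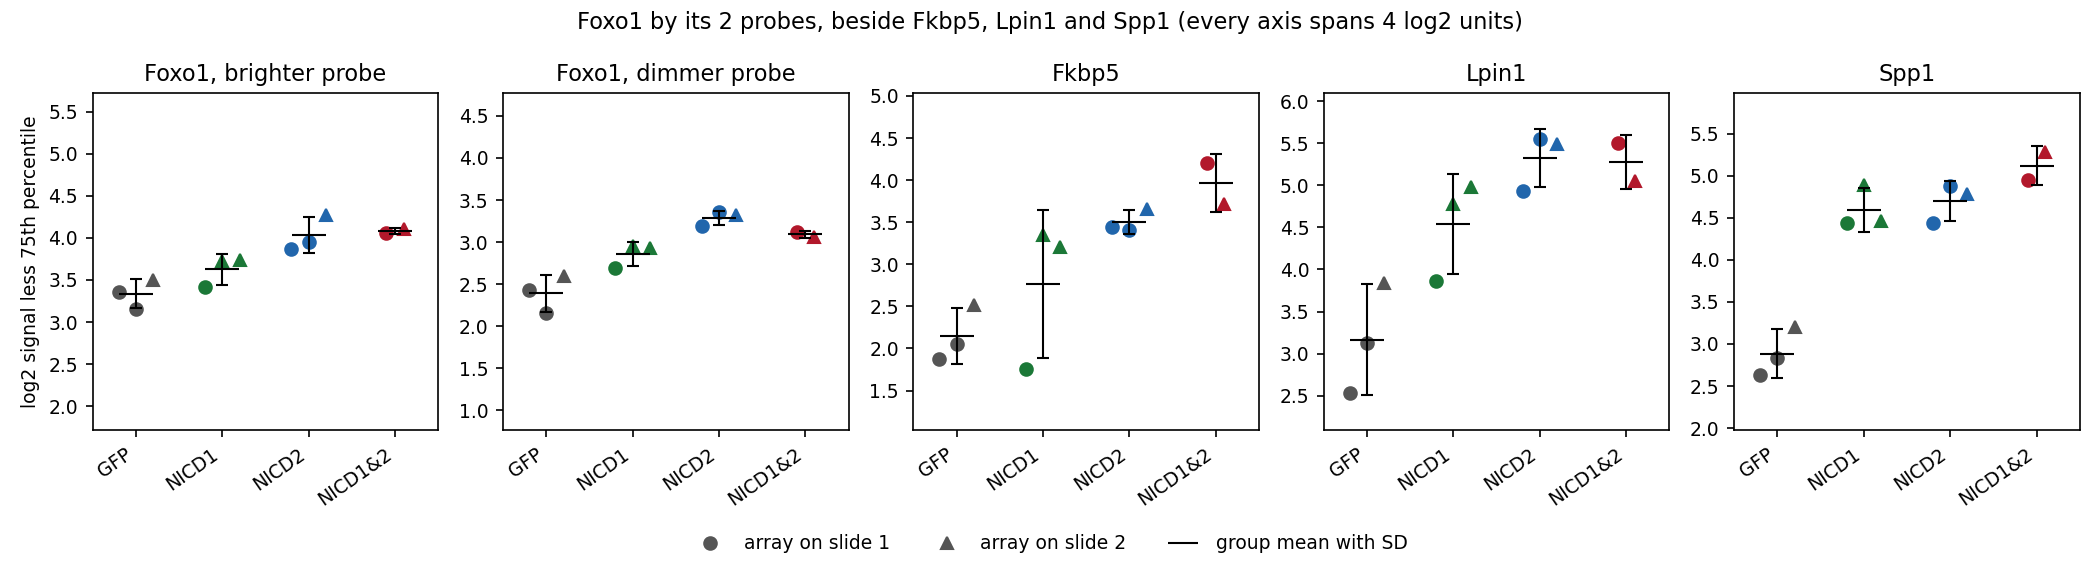
Log2 level of Foxo1 by each of its probes, and of Fkbp5, Lpin1 and Spp1, on each array, with group means and SD (n = 3, and 2 for NICD1&2). By both Foxo1 probes all NICD2 and NICD1&2 arrays lie above all GFP arrays.

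Pck1 encodes phosphoenolpyruvate carboxykinase, which turns oxaloacetate into phosphoenolpyruvate early in gluconeogenesis. Its log2 level was 7.97, 8.47 and 8.63 with GFP, 8.55, 8.72 and 8.41 with NICD1, 8.86, 8.73 and 8.86 with NICD2, and 9.08 and 9.10 with both vectors. The groups rank GFP, NICD1, NICD2 and NICD1&2 by mean, the first 2 overlap, and the NICD1&2 arrays lie above all others. The mean difference from GFP was 0.21 ± 0.17 (SE) with NICD1, 0.46 ± 0.17 (SE) with NICD2 and 0.74 ± 0.19 (SE) with both, the last being 1.67-fold and 0.49 on the log2 scale after quantile normalization. The limma adjusted p was 0.920, 0.618 and 0.179. NICD1 lay 0.25 below NICD2 (SE 0.17) on the log2 scale, an adjusted limma p of 0.99998. Without the first GFP array, the lowest of all 11, the NICD2 difference was 0.27 and the NICD1 difference 0.01. A test of whether both vectors together differ from the sum of their separate effects gave a limma adjusted p of 0.957 for Pck1, 0.806 for the brighter Foxo1 probe and 0.645 for the dimmer (log2 difference -0.67 ± 0.19, SE).

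The other enzymes moved less. Fbp1, fructose-1,6-bisphosphatase, had log2 levels of 9.51, 9.49 and 9.39 with GFP, 9.42, 9.47 and 9.36 with NICD1, 9.54, 9.43 and 9.60 with NICD2, and 9.58 and 9.85 with both. Only the NICD1&2 arrays cleared the GFP arrays, by a mean of 0.26 ± 0.11 (SE; limma adjusted p = 0.335). That direction holds only under scaling to the 75th percentile, since the difference was -0.06 after quantile normalization, and the median over all tested probes was itself shifted by 0.12 in this comparison. Pcx, pyruvate carboxylase, lay between 6.76 and 7.15 on all arrays, with group means of 6.98 ± 0.08, 6.85 ± 0.12, 6.99 ± 0.14 (SD, n = 3) and 7.02 ± 0.18 (SD, n = 2) in the order GFP, NICD1, NICD2 and NICD1&2. Its lowest limma adjusted p over 6 pairwise comparisons was 0.582.

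G6pc encodes the catalytic subunit of glucose-6-phosphatase, which releases free glucose at the end of the pathway. Its log2 level was 5.87, 6.14 and 7.39 with GFP, 6.65, 6.11 and 6.39 with NICD1, 5.97, 5.84 and 6.70 with NICD2, and 6.30 and 6.69 with both vectors. The third GFP array was the highest of all 11 and the first was among the lowest, so the GFP arrays enclosed all the others but 1. The difference from GFP was -0.08 ± 0.39 (SE) with NICD1, -0.30 ± 0.39 (SE) with NICD2 and 0.03 ± 0.44 (SE) with both, with limma adjusted p of 0.987, 0.956 and 0.978. With slide as a block the NICD1 difference was -0.27. Without the third GFP array the NICD1 difference was 0.38 and the NICD2 difference 0.17. With standard errors of this size, a change of G6pc under NICD1 or NICD2 by the amount seen for Foxo1 was not detectable.

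Tat encodes tyrosine aminotransferase, an enzyme of amino acid breakdown that glucocorticoids induce. Its log2 level was 6.15, 6.36 and 6.94 with GFP, 7.15, 6.35 and 6.39 with NICD1, 7.12, 7.03 and 6.67 with NICD2, and 6.71 and 6.49 with both. The groups overlapped in every comparison, and NICD2 differed from GFP by 0.46 ± 0.27 (SE; limma adjusted p = 0.836).

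Ppargc1a encodes PGC-1alpha, a coactivator of FoxO1 at gluconeogenic genes. By its brighter probe the log2 level was 0.15, 0.21 and 0.34 with GFP, 0.18, 0.17 and 0.75 with NICD1, 0.68, 0.77 and -0.11 with NICD2, and 0.88 and -0.06 with both. The 3 GFP arrays lay close together while each NICD group held both high and low arrays. By the dimmer probe it was -1.07, -1.15 and -0.98 with GFP, -1.02, -1.09 and -0.75 with NICD1, -0.47, -0.40 and -0.86 with NICD2, and -0.63 and -2.17 with both. By that probe the NICD2 arrays all lay above the GFP arrays, by a mean of 0.49 ± 0.33 (SE; limma adjusted p = 0.865), and the second NICD1&2 array was the lowest of all. Over 6 pairwise comparisons the lowest limma adjusted p was 0.797 for the brighter probe and 0.565 for the dimmer.

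Irs2, insulin receptor substrate 2, is both a part of insulin signalling and a FoxO1 target. Its log2 level was 3.53, 3.36 and 4.56 with GFP, 3.26, 3.40 and 3.87 with NICD1, 2.56, 2.71 and 3.58 with NICD2, and 3.04 and 3.22 with both vectors. Both NICD1&2 arrays were below all GFP arrays, and the NICD2 arrays overlapped GFP through a single high array. The NICD2 mean was 0.86 ± 0.36 (SE) lower on the log2 scale, or 1.82-fold lower (limma adjusted p = 0.706), which is the one difference that met the definition of altered by the brightest probe of a gene. That call was lost when the third GFP array was left out (difference -0.49), and also without the first or the second NICD2 array. Its mean was lower by 0.81 within slide 1, and on slide 2 the single NICD2 array was 0.98 below the single GFP array, which is the third GFP array. The difference from GFP was -0.69 ± 0.40 (SE) with both vectors and -0.31 ± 0.36 (SE) with NICD1, with limma adjusted p of 0.424 and 0.935. Without the third GFP array these were -0.31 and 0.065. NICD1 lay 0.56 ± 0.36 (SE) above NICD2, an adjusted limma p of 0.99998. With slide as a block that difference was 0.33, and the one between NICD1 and GFP -0.53. In the NICD2 livers the mean of Foxo1 was thus higher, and the mean of Irs2 lower, than in GFP livers.

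Insr, the insulin receptor, lay between -0.25 and 0.24 by its brighter probe, with a lowest limma adjusted p of 0.583 over 6 pairwise comparisons. Its dimmer probe was -2.36 and -2.69 with both vectors and between -2.43 and -1.72 elsewhere, a lowest adjusted limma p of 0.361.

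Igfbp1 encodes a secreted binding protein of insulin-like growth factors and is one of the most insulin-sensitive transcripts of liver. Its log2 level was 5.65, 7.03 and 8.24 with GFP, 6.39, 6.86 and 7.34 with NICD1, 6.45, 6.67 and 7.61 with NICD2, and 6.24 and 7.59 with both vectors. The group means, 6.97 ± 1.30, 6.87 ± 0.48, 6.91 ± 0.62 (SD, n = 3) and 6.91 ± 0.96 (SD, n = 2), were closer to each other than the arrays within any group. The difference from GFP was -0.11 ± 0.64 (SE) with NICD1, -0.06 ± 0.64 (SE) with NICD2 and -0.06 ± 0.72 (SE) with both, with limma adjusted p of 0.989, 0.996 and 0.973. With slide as a block, which leaves the NICD2 difference as it was, it was -0.52 with NICD1 and -0.27 with both. The SD within groups, 0.89 on the log2 scale, was larger than that of 95.7% of tested probes, against a median of 0.22. For G6pc this share was 83.6% and for Irs2 81.1%, while Fbp1, at 7.84%, and Pcx, at 20.3%, were among the steadier probes.

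**Figure D3:**
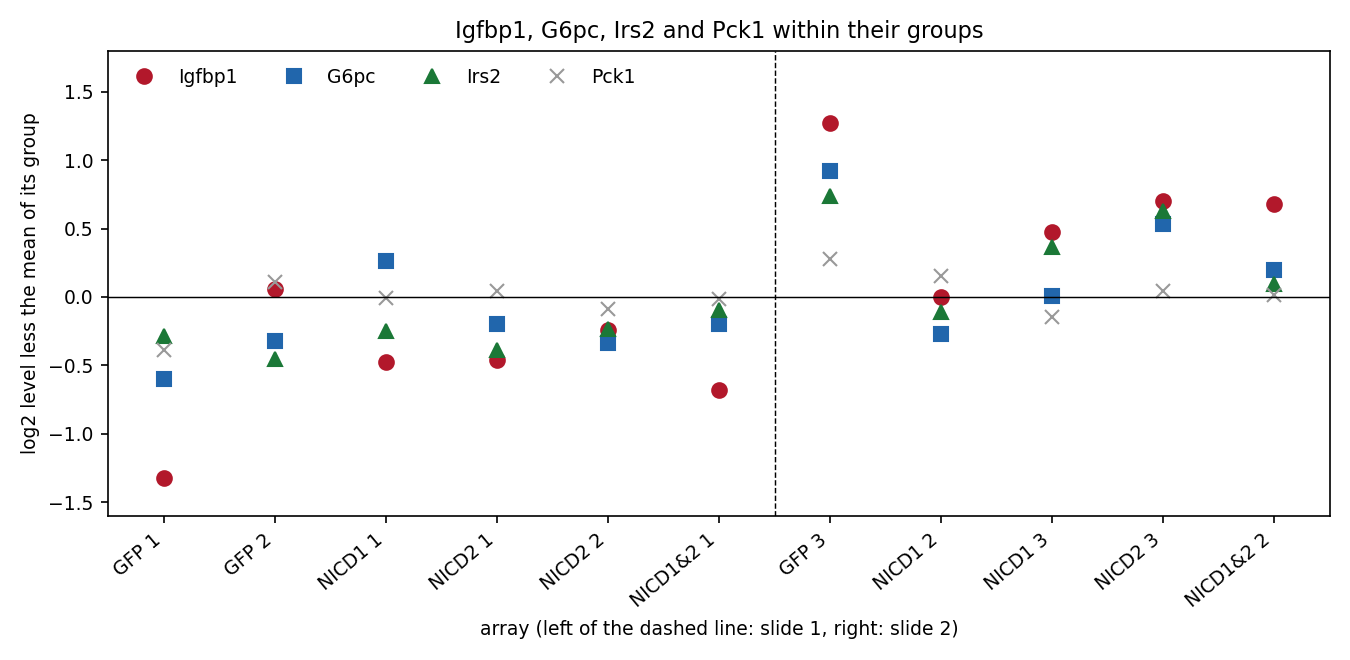
Log2 level of Igfbp1, G6pc, Irs2 and Pck1 on each array less the mean of the array's group, with slide 1 left of the dashed line and slide 2 right of it. Igfbp1, G6pc and Irs2 are all highest on the third GFP array and lie above their group means on the third NICD2 array, and Pck1 stays between -0.39 and 0.28.

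G6pc, Irs2 and Igfbp1 were among the genes that varied together inside the groups. After the group means were taken off, Pearson's r over the 11 arrays was 0.83 between G6pc and Irs2, 0.80 between G6pc and Igfbp1 and 0.79 between Irs2 and Igfbp1. Without the third GFP and the third NICD2 array, the 2 farthest from the median for G6pc and for Irs2, these became 0.46, 0.58 and 0.58. Without the first and the third GFP array, the farthest for Igfbp1, its r was 0.53 with G6pc and 0.73 with Irs2. Of the 45 pairs among the 10 genes, 5 had r above 0.7 and 3 had r below -0.7, with a median of 0.10. The other pairs above 0.7 were Foxo1 with Irs2 (0.86) and Fbp1 with Pcx (0.82), and Ppargc1a ran against Fbp1 (-0.88) and Pcx (-0.83). These are descriptions over arrays that share slides and handling. The slide difference was not taken off, and it was largest for Igfbp1, Irs2 and G6pc among the 10 genes.

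By the brightest probe of each gene, the slides differed most for Igfbp1, Irs2 and G6pc among the 10 genes. For Igfbp1, G6pc and Ppargc1a they differed by more than any vector group did from GFP. By the dimmer Ppargc1a probe NICD2 differed from GFP by 0.49, and the slide difference of that probe is not given. Igfbp1 on slide 1 had a lowest, median and highest log2 level of 5.65, 6.42 and 7.03, and on slide 2 of 6.86, 7.59 and 8.24. The arrays of the 2 slides barely overlapped. With group kept in the model, slide 2 was 1.25 ± 0.29 (SE) higher than slide 1 for Igfbp1, a size above that of 99.8% of tested probes. It was 0.68 ± 0.17 (SE) higher for Irs2, above 97.2% of probes, and 0.56 ± 0.25 (SE) for G6pc, above 94.6%. For Ppargc1a slide 2 was lower, at -0.29 ± 0.22 (SE). For Foxo1 the slide difference was 0.26 ± 0.08 (SE), with an unadjusted limma p of 0.010 and an adjusted p of 0.434, for Pck1 it was 0.14 ± 0.13 (SE) and for Fbp1 0.05 ± 0.08 (SE). The limma adjusted p of the slide term was 0.403 for Igfbp1, 0.415 for Irs2 and 0.509 for G6pc. Over all probes it passed 0.05 for 0 of 36049, while 3630 (10.1%) had an unadjusted p under 0.05. Whether the slides also differ in feeding, collection or handling of the mice was not tested.

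**Figure D4:**
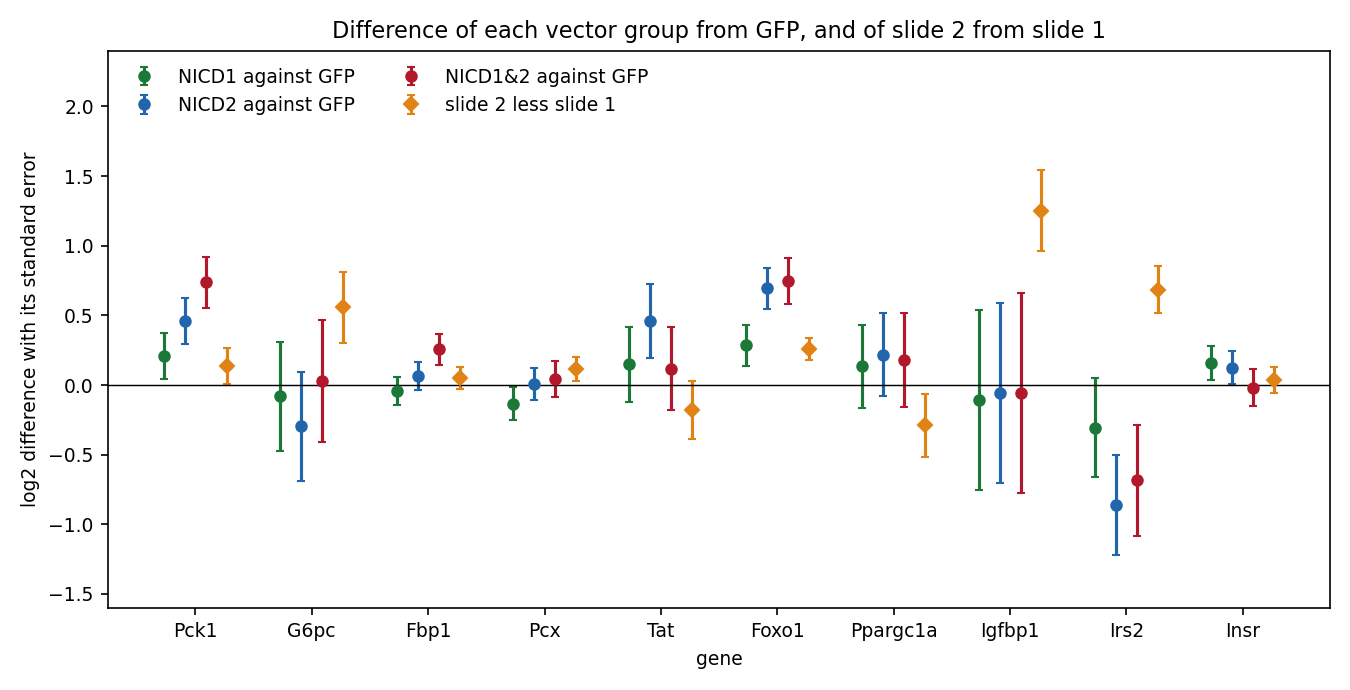
Log2 difference with its standard error for the brightest probe of each gene. It is given for the 3 vector groups against GFP without slide in the model, and for slide 2 less slide 1 with group in the model. By these probes the slide difference is the largest of the 4 in size for Igfbp1, G6pc and Ppargc1a. For Foxo1 and Pck1 the differences with NICD2 and with both vectors are larger than the slide difference.

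For each of the 10 genes the 3 genes with the most similar levels over the 11 arrays were looked up among 13828 named genes. G6pc was most like Sik1, a kinase induced by cAMP (r = 0.91), then Csprs (0.87) and Rcan1 (0.87). Tat was most like Tsc22d3, a glucocorticoid-induced gene (0.88), then Gm31588 (0.88) and Kcnk5 (0.87). Igfbp1 was most like Tvp23b (0.94), Ppp1r3g, a glycogen-targeting subunit of protein phosphatase (0.92), and Fmn2 (0.91). Irs2 was most like Rab8b (0.91), Gm38416 (0.87) and the clock-related repressor Bhlhe40 (0.86). Foxo1 was most like Grhl1 (0.97), Tesk2 (0.96) and Man1a (0.95), and Pck1 was most like A530006G24Rik (0.97), Sgsh (0.96) and Psme3 (0.96). For Fbp1 they were Ncln, Bloc1s1 and Mtch1 (all 0.97), for Pcx Miip (0.92), C3 (0.91) and Rmrp (0.90), for Ppargc1a Ddx50 (0.92), Mterf3 (0.87) and Mylip (0.85), and for Insr Zbtb26 (0.89), Cped1 (0.87) and Pcdh17 (0.85). As the highest of so many correlations over 11 arrays, these describe likeness only.

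The rest of the pathway was read from lists of genes that hold none of the 10. Of 24 other genes of gluconeogenic flux (transaminases, shuttles, reversible glycolytic enzymes) and 22 genes of insulin signalling, 0 were altered and 0 passed the adjusted p of 0.05 in limma in each of the 4 comparisons. At an unadjusted p under 0.05 the flux genes numbered 0 with NICD1, 4 with NICD2, 7 with both and 4 in NICD1 against NICD2, and the signalling genes 1, 0, 1 and 0, beside 5.5%, 6.86%, 14.8% and 3.73% of all probes. With both vectors 21 of the 24 flux genes were higher than in GFP livers, with a median log2 difference of 0.20 against 0.12 over all tested probes. Among 19 FoxO relatives and further FoxO1 targets, Bcl6, a repressor, was lower with NICD1 by a log2 difference of -1.19 ± 0.69 (SE), on arrays that spanned 2.48 to 4.84 in GFP livers, and with 1 array left out it ran from -1.97 to -0.70. Foxo6 met the definition of altered with both vectors, but was well above background on 1 of 3 GFP and 1 of 2 NICD1&2 arrays, and its log2 difference of 1.06 was 0.055 with normexp and quantile normalization. The median of these 19 genes with both vectors was 0.23, against the same 0.12 over all probes.

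Among 25 genes of glucagon, cAMP and glucocorticoid control, 3 were altered with NICD2 and 2 with both vectors. Fkbp5, a glucocorticoid-induced co-chaperone of the glucocorticoid receptor, had log2 levels of 1.87, 2.06 and 2.51 with GFP, 1.75, 3.34 and 3.21 with NICD1, 3.45, 3.40 and 3.66 with NICD2, and 4.20 and 3.72 with both. That is 2.56-fold higher with NICD2 and 3.52-fold with both (limma adjusted p = 0.445 and 0.164). Pde4b, a phosphodiesterase that breaks down cAMP, was lower in every NICD array than in any GFP array. Its log2 difference was -1.11 ± 0.16 (SE) with NICD2 and -0.96 ± 0.18 (SE) with both (limma adjusted p = 0.0698 and 0.113). Per1, a clock gene that glucocorticoids and cAMP induce, was 0.87 ± 0.30 (SE) higher with NICD2 (limma adjusted p = 0.597), and with 1 array left out it ran from 0.54 to 1.23.

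Of 15 genes of the fasted state, 3 were altered with NICD1, 1 with NICD2 and 4 with both, all higher, and with both vectors the median log2 difference of the 15 was 0.32, against 0.12 over all probes. Lpin1, a phosphatidate phosphatase and coactivator induced in fasting, had log2 levels of 2.54, 3.12 and 3.84 with GFP, 3.87, 4.78 and 4.98 with NICD1, 4.93, 5.55 and 5.50 with NICD2, and 5.50 and 5.05 with both. No NICD array overlapped GFP, and the folds were 2.59, 4.46 and 4.32 (limma adjusted p = 0.751, 0.146 and 0.127). Cyp4a14 and Cyp4a10, fatty acid hydroxylases under PPARalpha, were higher by 1.88 ± 0.87 and 0.93 ± 0.46 (SE) with NICD1 and by 1.84 ± 0.97 and 1.16 ± 0.52 (SE) with both. The third GFP array was the lowest of all for each of them, at -4.88 for Cyp4a14, where it was not well above background, and 2.39 for Cyp4a10. The Cyp4a14 differences from GFP thus rest on 2 measured GFP arrays and a value at background. Without the third array the differences were 0.76 and 0.30 with NICD1 and 0.73 and 0.54 with both. Against NICD2, NICD1 was higher by 1.44 ± 0.87 (SE) for Cyp4a14 and 1.095 ± 0.46 (SE) for Cyp4a10. Acot1, an acyl-CoA thioesterase, was 1.53 ± 0.27 (SE) higher with both vectors (limma adjusted p = 0.0988). Among 19 genes of the fed state and glucose use, Ppp1r3c, a glycogen-targeting subunit of protein phosphatase, was altered with NICD1, at -0.94 ± 0.50 (SE) and between -1.24 and -0.60 with 1 array left out.

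Among 16 clock genes, Ciart, a clock repressor, was 0.87 ± 0.18 (SE) higher with NICD2 and 0.89 ± 0.20 (SE) with both, and NICD1 lay 0.85 below NICD2 (SE 0.18), with limma adjusted p of 0.226, 0.153 and 0.779. Npas2 met the definition of altered with NICD2, but was well above background on 2 GFP arrays and no other array, so no fold is given. With both vectors the median log2 difference was 0.080 over the 10 genes, 0.080 for insulin signalling, 0.081 for glucagon, cAMP and glucocorticoid control, 0.081 for the fed state and 0.17 for the clock, against 0.12 over all probes. Over these 7 lists, 4.29%, 4.29%, 5.71% and 2.14% of 140 genes were altered in NICD1, NICD2 and NICD1&2 against GFP and in NICD1 against NICD2, beside the background shares of altered probes given above, and 0 passed the adjusted p. In limma, Pde4b passed it in 2 of 23 alternatives both with NICD2 and with both vectors (lowest adjusted p 0.0142 and 0.0169, highest 0.288 and 0.471). Ciart passed in 1 of 23 in each of these comparisons, and with both vectors Fkbp5 passed in 1 of 23 and Acot1 in 2 of 23. Since clock and fasting genes follow time of day and food, neither of which the sources give, their part in the levels of the 10 genes was not tested.

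The vectors were checked on Notch targets. Spp1 was 3.27-fold higher with NICD1, 3.51-fold with NICD2 and 4.70-fold with both (limma adjusted p = 0.0931, 0.0262 and 0.0108). The adjusted p of Spp1 missed 0.05 in 9 of 23 alternatives with NICD2, up to 0.174, and in 4 of 23 with both, up to 0.317. With NICD1 it passed in 2 of 23. Nrarp was not well above background on any GFP array and was at least 4.65-fold higher with NICD2 and 7.06-fold with both, bounds set by the lowest signals well above background (limma adjusted p = 0.103 and 0.0712). With NICD1 it was well above background on 2 of 3 arrays, and the third lay below the highest GFP array. Hes1 differed from GFP by -0.03 ± 0.45 (SE) with NICD1 (limma adjusted p = 0.994). It was higher by 1.64 ± 0.45 (SE) with NICD2 and 1.36 ± 0.50 (SE) with both, and 1.67 lower with NICD1 than with NICD2 (SE 0.45), with limma adjusted p of 0.414, 0.280 and 0.99998. With normexp and quantile normalization these 3 Hes1 differences were 0.74, 0.50 and -0.80, and the fitted log2 differences of Nrarp from GFP were 0.53 with NICD2 and 0.68 with both. Sox9 was 1.16 ± 0.31 (SE) higher with both vectors, and leaving out the first or the second NICD1&2 array gave 0.62 or 1.69. Hey1 had its lowest limma adjusted p over the 4 comparisons at 0.166, Notch1 at 0.810 and Notch2 at 0.760, and whether the Notch1 and Notch2 probes lie in the part the vectors carry was not tested. All 10 hepatocyte markers were well above background on all arrays, and none was altered. The log2 of their summed signal ran from 12.60 to 12.65 in GFP livers, 12.37 to 12.65 with NICD1, 12.54 to 12.71 with NICD2 and 12.70 to 12.77 with both, and 1, 4 and 7 of the 10 were higher than in GFP livers in the NICD groups in that order. The log2 of the summed signal of 7 bile duct markers, which include Spp1 and Sox9, ran from 2.86 to 3.38 in GFP livers, 4.52 to 4.96 with NICD1, 4.53 to 4.95 with NICD2 and 5.04 to 5.34 with both, with 5 of the 7 above background on all arrays. Most of that sum was Spp1: over the other 6 markers it ran from 0.062 to 0.29, 0.30 to 0.57, 0.47 to 0.76 and 0.74 to 0.96. Of the 7 markers 1, 1 and 2 were altered in the 3 NICD groups against GFP. That of 7 Kupffer cell and macrophage markers ran from 6.49 to 7.05, 6.48 to 6.67, 6.54 to 6.72 and 6.85 to 7.02. Of 8 exocrine pancreas markers, 3 were well above background on all arrays and 5 on no array. Of 5 kidney markers none was well above background on all arrays and 1 was on no array. Of the 4 kidney markers tested, 1 was altered with NICD1 and 1 with both vectors, each higher than in GFP livers. The part of other cell types in the levels of the 10 genes was not tested.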

How the data were processed

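Mouse liver RNA had been hybridised by the authors to 11 Agilent one-colour arrays, and Feature Extraction 11.5.1.1 gave the processed intensity per spot, with background subtracted by the software, and a flag for signals well above background. The deposited table holds log2 values normalized by the authors to the 75th percentile of each array. The methods name an RNA kit and an array format that differ from those in the labels and files. Here log2 of the processed intensity less the 75th percentile of each array was used, and it differed from the deposited table, which was run as an alternative, by at most 0.007 for the 13 probes. The flags mark between 57.0% and 62.0% of spots per array as well above background, and 0 were saturated. The number of arrays limits the precision.

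Control spots and outlier-flagged spots were left out, and a probe was kept if 2 or more of the 11 arrays had it well above background. Each gene stands for its probe with the highest mean. A linear model with 1 mean for each group took in the 11 arrays together (limma 3.58.1 with its lmFit and eBayes steps, R 4.3.3), and p-values were adjusted over 36049 probes by Benjamini-Hochberg. The script was tested on simulated data. Exact permutation enumerated the arrays of 2 groups. Slides came from the file headers. Gene names came from RefSeq accessions (GRCm38.p6), which named 32989 of 56605 probes.

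The members, the lists and the tests were chosen with earlier results of these data known. Genes of the lists were named if altered or called, up to 4 per list and comparison, with Hes1, Hey1, Nrarp, Notch1 and Notch2 added. A result of the fed-state list is not reported here.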

Additional observations from a re-analysis of the deposited data

Results flagged for a closer look

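Cyp4a10 stood out because all NICD1 arrays lay above the mean of the GFP arrays and all NICD2 arrays below it. The log2 difference between NICD1 and NICD2 was 1.095 ± 0.46 (SE), with an unadjusted limma p of 0.0416 and an adjusted p of 0.99998, and the GFP mean is pulled down by the third GFP array. It is no member of the 10 genes, none of which was set apart in this way.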

How the results depend on the processing

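The count of altered members in NICD2 against GFP, 1 in the main setting, was 0 with normexp and quantile normalization, 0 with the thresholds set to P 0.05 and 2-fold, and 0 with an adjusted p of 0.15 as the limit beside 1.8-fold. With 1 array left out it ran from 0 to 1, as did the counts for NICD1&2 against GFP and for NICD1 against NICD2. By its brightest probe no member passed an adjusted p of 0.05 in any of the 23 alternatives, and the lowest was 0.0751 (Foxo1, NICD1&2 against GFP, filter of all 11 arrays). The dimmer Foxo1 probe passed in NICD2 against GFP in 2 of 22, at 0.0156 with normexp and quantile normalization and 0.0253 with the filter of all 11 arrays; its log2 difference ran from 0.78 to 0.998 with 1 array left out. Of the 40 member differences, 21 changed sign under at least 1 alternative, none of them above 0.31 in size, and 19 kept their sign. For NICD1&2 against GFP, G6pc was -0.15 after quantile normalization, -0.049 with the percentile taken over probes that all arrays detect, -0.37 with normexp, -0.15 with array weights and -0.065 with slide as a block, and Fbp1 was -0.057 after quantile normalization and -0.18 with normexp. The cause was not tested. With 1 array left out, G6pc ran from -0.38 to 0.38 with NICD1, -0.60 to 0.17 with NICD2 and -0.27 to 0.49 with both, Igfbp1 from -0.77 to 0.53, -0.72 to 0.58 and -0.74 to 0.62, and Irs2 with NICD1 from -0.53 to 0.065.

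The correlation of deviations between arrays with the same replicate number ran from -0.43 to 0.18 over 15 pairs, with 6 above 0.1 and a median of 0.038. Over 30 pairs with different numbers it ran from -0.35 to 0.47, with 7 above 0.1 and a median of 0.017. Deviations from means of 2 or 3 arrays depend on each other, so these values cannot show whether the arrays were paired. With the replicate number as a block, the count of altered members in NICD2 against GFP was 1 and Igfbp1 in NICD1&2 against GFP was 0.35. Groups of 2 or 3 arrays limit all of these values.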
